A study of Homo sapiens with 19 samples.

Results

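Gene expression after 96 h with GSK715 was compared with the DMSO solvent control in WiDr, a human colorectal carcinoma cell line, by short-read RNA sequencing. GSK715 (GSK3368715), given at 5 µM, is described in the labels as an inhibitor of PRMT1 and is known as an inhibitor of the type I protein arginine methyltransferases. The comparison rests on 6 poly(A)-enriched libraries of the 19 in the series, 3 with DMSO and 3 with GSK715, and its members are all genes that passed an expression filter. That left 19340 of the 63086 gene identifiers in the deposited WiDr count table, or of 84354 in the series. The same compound, dose and time in HCT116 (another colorectal carcinoma line, 3 DMSO and 3 GSK715 short-read libraries) and in WiDr read as full-length cDNA on an Oxford Nanopore (ONT) sequencer (2 and 2 libraries) served as comparisons. The labels do not state whether libraries of 1 group came from different cultures, and the p-values then reflect only how these libraries vary, which may be technical. The libraries are of whole cultures, in which fewer cells of a type and less RNA per cell cannot be told apart.

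Type I arginine methyltransferases place asymmetric dimethyl marks on arginine side chains. PRMT1 is the main one in most cells, and many of its targets are histones and RNA-binding proteins, among them splicing factors of the hnRNP family. Inhibitors of these enzymes act on the proteins and need not alter the mRNAs of the enzymes. Colorectal carcinoma cells depend in varying degree on growth factor signalling through the EGF receptor and the MAPK cascade, on Wnt signalling and on amino acid uptake.

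Levels are in CPM, the usual share of the library total, after TMM scaling (mean ± SD, n = 3 per group), and a change is a log2 fold change (log2FC) of GSK715 over DMSO with its standard error (SE). A gene is said to rise or fall where edgeR's quasi-likelihood test passed a Benjamini-Hochberg adjusted p of 0.05 over all genes tested. With GSK715, 6502 genes (33.6%) rose and 6225 (32.2%) fell, together 65.8%. At least 2-fold, 3376 (17.5%) rose and 2027 (10.5%) fell. The 3 GSK715 libraries lay wholly above or below the 3 DMSO libraries in 72.2% of the genes. These shares are the background for every count that follows. Against a 1.5-fold change as the null, 3519 genes rose and 2898 fell.

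**Figure D1:**
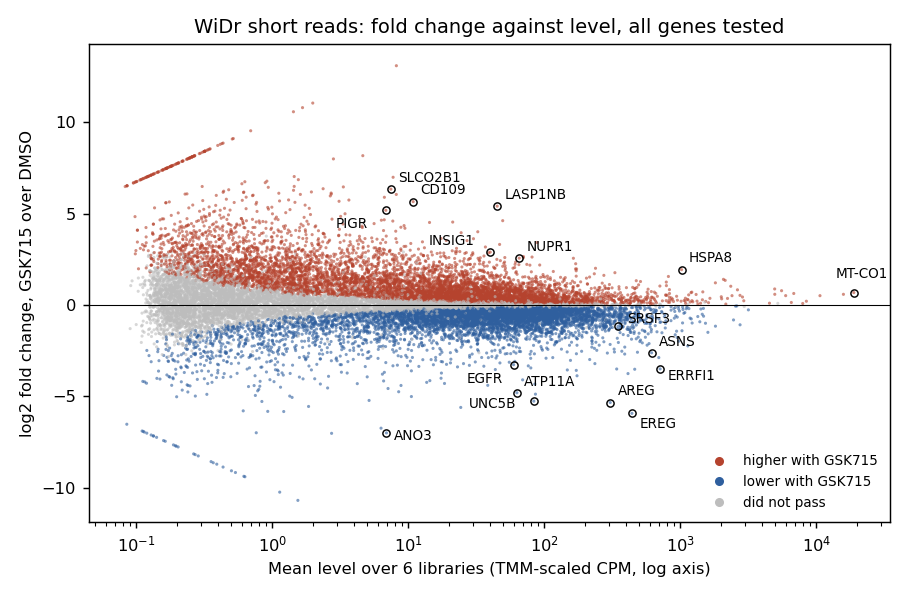
Log2 fold change of GSK715 over DMSO against the mean level (CPM, log axis) for the genes tested in WiDr short reads, 1 point per gene, coloured by call. Red points prevail at low levels and blue ones at high levels, and the straight streaks at the left are genes without a count in a group, whose fitted fold change is no measurement of size.

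The direction of change went with the level of a gene. Of 5107 genes under 1 CPM, 1351 rose and 432 fell, and their median log2FC was 0.52. Genes this low can pass the expression filter through their higher group alone, and the part of this in the skew was not tested. Of 4288 genes at 50 CPM or more, 1250 rose and 2541 fell, with a median of -0.24, against 0.05 over all genes. Of 2936 long noncoding RNAs 937 rose and 389 fell (median 0.42). Of 13808 protein-coding genes 4863 rose and 5490 fell (median -0.03), but with library totals 5666 rose and 4681 fell (median 0.09), so their balance depended on the scaling. The share of counts in long noncoding RNAs was 1.22% in each DMSO library and 1.73% to 1.77% with GSK715. Between 24123 and 24986 genes had a count in the DMSO libraries and between 25954 and 26240 in the GSK715 libraries, at total counts of 62009831 to 82390261 and of 59612948 to 65677174. The 100 genes with most counts took 20.8% to 21.2% of the DMSO counts and 26.1% to 26.7% of the GSK715 counts. Across 11025 genes of at least 5 CPM, Spearman's rho of the log2FC was -0.06 with exonic length and 0.28 with GC content of the longest transcript. Genes are not independent replicates, and the part of depth, level and GC content in single results was not tested. Scaling by library totals moved the median of all genes up by 0.12, and 7495 genes then rose and 5300 fell.

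The libraries carried the transcripts of an epithelial line. Of 12 markers of a colorectal epithelial line 9 rose and 3 fell (median log2FC 0.62). Their summed level was 15870 to 16130 CPM with DMSO and 22620 to 23130 CPM with GSK715. EPCAM, an epithelial adhesion molecule, stood at 543 ± 16.4 CPM with DMSO and 481 ± 9.23 CPM with GSK715, and KRT8, KRT18, KRT19 and the colonic lectin LGALS4 were each above 300 CPM in every library. The intestinal regulators CDX1 and CDX2 and the colonic antigen GPA33 were near 0 (means of 0.13 to 0.55 CPM with DMSO and 0.59 to 1.67 CPM with GSK715). Of 10 fibroblast and smooth muscle markers 4 passed the filter, and COL1A2, COL3A1, DCN and PDGFRA had no count in any library. The summed level of that list was 12.2 to 13.7 CPM with DMSO and 16.6 to 19.7 CPM with GSK715. Of 8 endothelial markers 3 passed, with summed levels of 117 to 124 and 134 to 138 CPM that lay mainly in ESAM. Of 12 immune markers 4 passed, with summed levels of 1211 to 1244 and 3037 to 3175 CPM, nearly all from the lysozyme gene LYZ, while CD3D, MS4A1 and TYROBP had no count and the leukocyte gene PTPRC averaged 0.11 CPM with DMSO.

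The mRNA of the targeted enzyme moved little. PRMT1 (ENSG00000126457, GRCh38 chromosome 19, 49675786 to 49689029) was at 311, 314 and 311 CPM with DMSO and at 291, 289 and 282 CPM with GSK715. The groups did not overlap (log2FC -0.12, SE 0.0261, adjusted p = 0.00273), but the change was 0.0070 with library totals (adjusted p = 0.818), so its direction depended on the scaling. Of 12 measured PRMT enzymes and cofactors, 4 rose and 7 fell, and with library totals 4 rose and 5 fell. PRMT3, a type I enzyme of the cytosol, fell from 54.3 ± 3.42 to 17.4 ± 1.23 CPM (log2FC -1.64), as did RIOK1, a PRMT5 adaptor, from 30.4 ± 0.471 to 9.74 ± 0.885 CPM (log2FC -1.64). PRMT7, the type III enzyme, rose from 8.77 ± 0.440 to 17.97 ± 1.41 CPM (log2FC 1.03), and PRMT2 rose by 0.70 on the log2 scale. PRMT5 fell by 0.51 on the log2 scale, with exons that overlap an antisense gene.

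EGFR and 6 of its measured ligands fell, and 1 ligand near 0 (EPGN) rose. EREG (epiregulin) was at 817, 848 and 939 CPM in the DMSO libraries and at 13.7, 13.5 and 15.9 CPM in the GSK715 libraries. Every GSK715 library was far below every DMSO library (log2FC -5.92, SE 0.0787, adjusted p = 1.07e-11, 60.6-fold lower). AREG (amphiregulin), its neighbour on chromosome 4, was at 583, 595 and 612 CPM with DMSO and at 15.9, 14.1 and 14.5 CPM with GSK715 (log2FC -5.33, SE 0.0505, adjusted p = 3.41e-12). HBEGF, another ligand shed from the membrane, went from 32.8 to 2.04 CPM (log2FC -4.002). The receptor EGFR was at 106, 106 and 111 CPM with DMSO and at 11.5, 10.98 and 11.2 CPM with GSK715, again without overlap (log2FC -3.26, SE 0.0423, adjusted p = 9.87e-12). ERRFI1, an inhibitor of the receptor's kinase, fell from 1306 ± 14.8 to 116 ± 3.15 CPM (log2FC -3.49). ERBB2, a related receptor, rose from 101.5, 104.5 and 94.2 CPM to 231, 234 and 237 CPM (log2FC 1.23) and ERBB3 from 184 ± 4.24 to 324 ± 0.508 CPM (log2FC 0.82). In all, 4 of the 12 measured genes (of 13 listed) of the family and its ligands rose and 8 fell, with a median log2FC of -1.05. The other 2 that rose were EPGN, from 0.0994 ± 0.0433 to 0.310 ± 0.102 CPM (log2FC 1.65), and LRIG1, from 46.9 ± 0.943 to 57.6 ± 0.430 CPM (log2FC 0.30). ERBB4 had no count in any of the 6 libraries.

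Genes that respond to MAPK signalling fell together. Of 15 feedback genes none rose, 13 fell and 2 (DUSP10 and SPRY2) did not pass, with a median log2FC of -1.26. PHLDA1, DUSP6 (a phosphatase of ERK) and IER3 had the smallest p-values and fell, from 501 ± 4.42 to 81.2 ± 2.77 CPM (log2FC -2.62), from 170 ± 2.26 to 51.5 ± 1.91 CPM (log2FC -1.72) and from 149 ± 4.55 to 59.4 ± 1.81 CPM (log2FC -1.32). Of 15 immediate early genes 13 fell and 1 rose (median -0.75). The AP-1 subunit FOSL1 was at 82.2, 80.4 and 78.6 CPM with DMSO and at 7.07, 6.86 and 7.01 CPM with GSK715 (log2FC -3.53, SE 0.0494, adjusted p = 1.49e-11). EGR1, a zinc finger factor induced by growth factors, went from 55.8 to 6.45 CPM (log2FC -3.11). MYC was at 381, 399 and 376 CPM with DMSO and at 93.4, 93.6 and 95.6 CPM with GSK715 (log2FC -2.03). JUN was the 1 member that rose, from 120 ± 1.43 to 201 ± 5.28 CPM (log2FC 0.75). Among 14 measured target genes of YAP, the effector of the Hippo pathway, 3 rose and 9 fell (median -0.91), with CCN2 at 37.9 ± 1.16 and 6.90 ± 0.369 CPM (log2FC -2.46) and AMOTL2 at 142 ± 1.75 and 44.1 ± 2.72 CPM (log2FC -1.69).

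**Figure D2:**
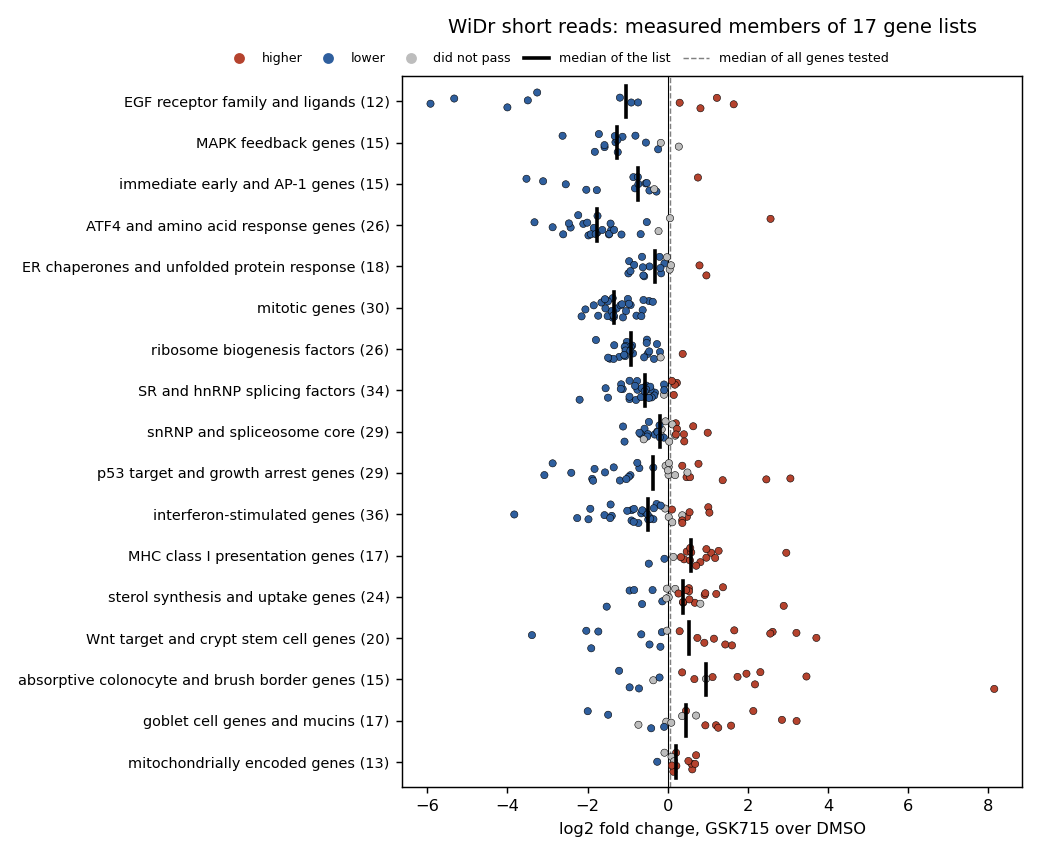
Log2 fold change of each measured member (1 point, with arbitrary vertical spread) of 17 gene lists in WiDr short reads, with the number measured in brackets, the list's median as a bar and the median of all genes as a dashed line. The ATF4, mitotic, MAPK feedback and EGF family lists lie mostly left of 0, and the MHC class I list lies mostly right of it. The point near 8 is ALPI, which had no count with DMSO.

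Genes of the amino acid response fell together. ATF4 is a transcription factor, made when translation initiation slows, that drives genes for amino acid synthesis and uptake. Of 26 measured genes of this response (of 27 listed) 23 fell, 1 rose and 2 did not pass, and 21 fell at least 2-fold (median log2FC -1.76). ASNS, asparagine synthetase, was at 1061, 1052 and 1061 CPM with DMSO and at 168, 176 and 177 CPM with GSK715 (log2FC -2.61, SE 0.0273, adjusted p = 3.56e-12). Both subunits of a large neutral amino acid transporter fell: SLC7A5 from 1874 ± 41.2 to 398 ± 12.6 CPM (log2FC -2.24) and SLC3A2 from 1552 ± 3.94 to 394 ± 7.51 CPM (log2FC -1.98). SESN2, an inhibitor of mTORC1, was at 204, 205 and 201 CPM with DMSO and at 27.5, 29.7 and 26.1 CPM with GSK715 (log2FC -2.87). CHAC1, which degrades glutathione, went from 179 to 33.4 CPM (log2FC -2.42). The mRNA of ATF4 itself was at 692 CPM with DMSO and 720 CPM with GSK715 (log2FC 0.06, adjusted p = 0.108, did not pass). NUPR1, a stress-induced chromatin protein, was the 1 member that rose, from 18.6, 20.8 and 17.4 CPM to 114, 111 and 111 CPM (log2FC 2.57, SE 0.0578, adjusted p = 2.38e-10).

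**Figure D3:**
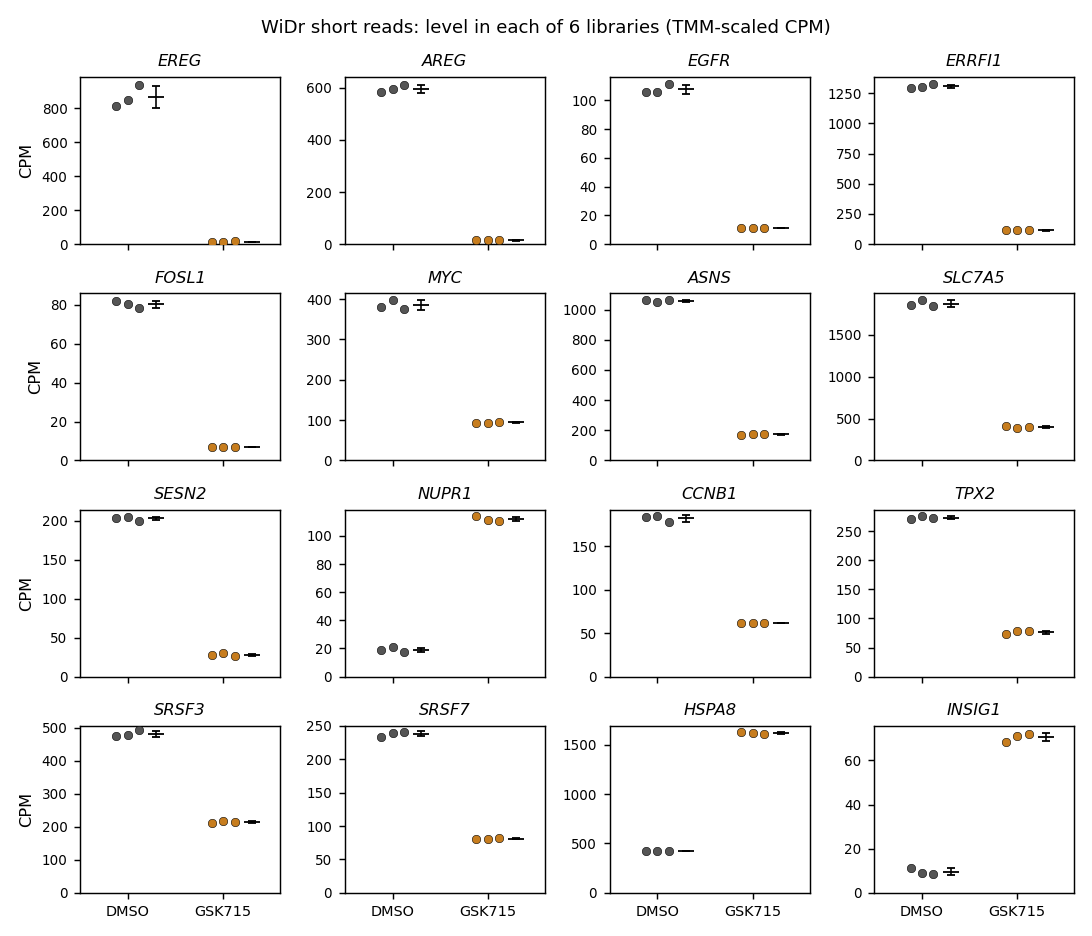
Level in each of the 6 WiDr short-read libraries (CPM, axes start at 0) for 16 genes, with mean and SD beside the points. In each panel the 3 GSK715 libraries lie on 1 side of the 3 DMSO libraries, above them for NUPR1, HSPA8 and INSIG1 and below them for the other 13.

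Promoters of this list were read from RefSeq (GRCh38.p14, 250 bases before to 50 after the start), where 22 of 27 genes had an entry. The 9-letter ATF4 motif TGATGNAAT, searched on both strands, was in none of the 22 and in 1.03% of all 27195 promoters. The shorter TGATGNAA, searched after that result was seen and contained in the first, was in 4 of 22 (ASNS, CHAC1, SLC3A2 and SLC7A1) and in 3.67% of all. The promoters of ASNS (chromosome 7, 97872359 to 97872658, minus strand) and CHAC1 (chromosome 15, 40953221 to 40953520, plus strand) are shown because both fell more than 5-fold, with the matched letters in capitals.
ASNS: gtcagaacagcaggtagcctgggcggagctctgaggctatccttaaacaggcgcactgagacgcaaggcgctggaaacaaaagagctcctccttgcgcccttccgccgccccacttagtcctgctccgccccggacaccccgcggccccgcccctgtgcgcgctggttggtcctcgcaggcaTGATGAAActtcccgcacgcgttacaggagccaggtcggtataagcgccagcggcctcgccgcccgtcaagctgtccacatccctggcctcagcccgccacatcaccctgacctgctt
CHAC1: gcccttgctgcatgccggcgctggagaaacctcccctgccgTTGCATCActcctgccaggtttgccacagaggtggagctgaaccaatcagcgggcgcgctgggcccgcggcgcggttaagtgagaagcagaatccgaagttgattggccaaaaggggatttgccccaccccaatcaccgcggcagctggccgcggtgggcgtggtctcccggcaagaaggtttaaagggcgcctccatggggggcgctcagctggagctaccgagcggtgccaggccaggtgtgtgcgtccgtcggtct
The match begins 68 bases before the start in ASNS and 209 bases before it in CHAC1, where it lies on the other strand. A match is a description of the letters in this window and not a bound site.

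Chaperones of the endoplasmic reticulum fell as well, by less. Of 18 measured genes 13 fell, 2 rose and 3 did not pass, none of the decreases reached 2-fold, and the median was -0.33. With library totals 10 fell and 5 rose (median -0.21). HSPA5, the main Hsp70 of this compartment, fell from 1624 ± 19.0 to 822 ± 4.64 CPM (log2FC -0.98) and its partner HYOU1 from 611 ± 15.6 to 321 ± 3.93 CPM (log2FC -0.93). Calreticulin (CALR) rose from 325 ± 5.09 to 634 ± 11.4 CPM (log2FC 0.96). In the cytosol HSPA8, the constitutive Hsc70, was at 423, 421 and 427 CPM with DMSO and at 1631, 1619 and 1613 CPM with GSK715 (log2FC 1.94, SE 0.0199, adjusted p = 3.56e-12). Chaperones of mitochondria, HSPA9 and HSPD1, fell by 1.25 and by 0.72 on the log2 scale. Of 16 heat shock chaperones 5 rose and 10 fell (median -0.17), and with library totals 5 and 6.

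Every one of 30 mitotic genes fell (median log2FC -1.35), 21 of them at least 2-fold, against 32.2% and 10.5% of all genes. TPX2, a spindle assembly factor, was at 271, 277 and 273 CPM with DMSO and at 72.5, 78.0 and 77.6 CPM with GSK715 (log2FC -1.85, SE 0.0359, adjusted p = 1.02e-10). CCNB1, the cyclin of mitotic entry, was at 183, 185 and 177 CPM and then at 61.7, 61.5 and 61.8 CPM (log2FC -1.56). CDC25B, the phosphatase that activates CDK1, fell from 383 ± 6.46 to 151 ± 1.02 CPM (log2FC -1.34). Replication genes were divided: of 33, 9 rose, 14 fell and 10 did not pass (median -0.16), and with library totals 12 rose and 11 fell. The licensing factor CDT1 rose from 21.9 ± 1.24 to 66.3 ± 1.07 CPM (log2FC 1.6), whereas the clamp loader subunit RFC3 fell from 69.7 ± 1.21 to 24.7 ± 1.10 CPM (log2FC -1.49). Of 31 homologous recombination and Fanconi genes 7 rose and 17 fell (median -0.32). BRCA2 fell by 1.66 on the log2 scale, and the damage kinase ATM rose by 0.82. Genes of the G1 phase moved both ways, 8 up and 8 down of 19. CCNE1 rose from 9.20 ± 0.991 to 27.3 ± 0.699 CPM, CDKN1C from 1.15 ± 0.118 to 10.1 ± 0.768 CPM, and CCND1 fell from 243 ± 3.01 to 102 ± 2.22 CPM.

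Genes of the p53 and growth arrest list fell more often than they rose, 15 against 7 of 29 (median -0.36), and with library totals 15 against 11. CDKN1A, which encodes the CDK inhibitor p21, was at 180, 178 and 180 CPM with DMSO and at 49.9, 48.6 and 47.3 CPM with GSK715 (log2FC -1.88, SE 0.0323, adjusted p = 4.54e-11). GDF15, a secreted stress factor, fell from 549 ± 8.04 to 104 ± 4.50 CPM (log2FC -2.41). SESN2 is counted here too. TP53INP1 and BTG2, an antiproliferative factor, rose, from 1.40 ± 0.150 to 11.7 ± 0.115 CPM (log2FC 3.06) and from 10.2 ± 0.870 to 56.2 ± 1.74 CPM (log2FC 2.46).

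RNA-binding proteins of the splicing machinery include many substrates of PRMT1. Of 34 SR and hnRNP genes 28 fell, 4 rose and 2 did not pass (median -0.56, 6 of them at least 2-fold lower). SRSF7, an SR protein, was at 234, 240 and 241 CPM and then at 81.1, 81.3 and 81.5 CPM (log2FC -1.55), and SRSF3 fell from 482 ± 8.75 to 215 ± 2.82 CPM (log2FC -1.16). The 4 that rose did so by little: SRSF5 by 0.23, HNRNPUL1 by 0.15, HNRNPA1 by 0.18 and KHDRBS1 by 0.10 on the log2 scale. Core snRNP and spliceosome genes changed less and both ways, 7 up and 15 down of 29 (median -0.20). With library totals 8 rose and 10 fell (median -0.07). SF3A3, of the U2 particle, rose from 40.3 ± 2.29 to 80.4 ± 1.98 CPM, and SNRPD1 fell from 50.1 ± 1.30 to 23.7 ± 1.94 CPM. Cleavage and polyadenylation factors fell in 15 of 23 cases (median -0.33) and nonsense-mediated decay factors in 13 of 16 (median -0.39), none of the latter by 2-fold. Of 26 ribosome biogenesis factors 24 fell and 1 rose (median -0.93), with the box C/D protein NOP58 at 221 ± 8.67 and 63.8 ± 1.41 CPM (log2FC -1.79) and the nucleolar chaperone NPM1 as the 1 that rose, from 951 ± 3.39 to 1231 ± 36.7 CPM.

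Of 9 nuclear noncoding RNAs and paraspeckle proteins 3 rose and 5 fell (median -0.06, and 0.06 with library totals). The RNAs NEAT1 and MALAT1 were among those that rose. NEAT1, the scaffold of paraspeckles, was at 1134, 1142 and 1142 CPM with DMSO and at 2996, 3078 and 2978 CPM with GSK715 (log2FC 1.40, SE 0.0184, adjusted p = 9.87e-12). Counts per gene from poly(A)-enriched libraries do not tell the transcripts of NEAT1 apart. MALAT1, a transcript of nuclear speckles, was at 399, 421 and 421 CPM and then at 1206, 1233 and 1229 CPM (log2FC 1.56). The paraspeckle protein SFPQ fell from 433 ± 6.86 to 289 ± 2.81 CPM (log2FC -0.59).

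Interferon-stimulated genes encode antiviral sensors and effectors. Of 36 measured, 25 fell, 7 rose and 4 did not pass (median log2FC -0.50), and 9 fell at least 2-fold. IFIH1, the sensor of long double-stranded RNA, was at 43.1, 43.5 and 44.2 CPM with DMSO and at 10.2, 11.8 and 11.3 CPM with GSK715 (log2FC -1.98, SE 0.0691, adjusted p = 4.21e-09). ISG20, an exonuclease, was at 49.5, 50.8 and 50.7 CPM and then at 13.0, 14.6 and 11.9 CPM (log2FC -1.93). The signalling factor STAT2 rose from 15.1 ± 0.664 to 30.5 ± 0.680 CPM (log2FC 1.01). The interferon-stimulated response element (ISRE), on either strand, was in 20 of the 29 promoters of this list with an entry (69.0%) and in 3.65% of all promoters. Those of IFIH1 (chromosome 2, 162318635 to 162318934, minus strand) and ISG20 (chromosome 15, 88638766 to 88639065, plus strand) are shown because their values are given above, with matches in capitals.
IFIH1: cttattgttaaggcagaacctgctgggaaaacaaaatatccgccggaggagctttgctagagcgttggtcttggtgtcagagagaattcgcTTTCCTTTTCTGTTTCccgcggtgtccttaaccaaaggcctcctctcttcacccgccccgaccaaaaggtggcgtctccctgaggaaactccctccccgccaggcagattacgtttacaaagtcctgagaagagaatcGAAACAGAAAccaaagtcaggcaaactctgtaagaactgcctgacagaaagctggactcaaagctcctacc
ISG20: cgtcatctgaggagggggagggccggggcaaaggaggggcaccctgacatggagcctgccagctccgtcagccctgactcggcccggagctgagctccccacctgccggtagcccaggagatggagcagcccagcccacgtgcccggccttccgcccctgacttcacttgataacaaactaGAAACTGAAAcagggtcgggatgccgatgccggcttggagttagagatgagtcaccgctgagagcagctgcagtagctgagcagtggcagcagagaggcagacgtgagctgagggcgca
IFIH1 holds 3 matches, a pair of which overlap, and ISG20 holds 1. The AP-1 motif TGANTCA was in none of 10 MAPK feedback promoters (7.73% of all), and the SREBP motif TCACNCCAC was in 1 of 18 sterol gene promoters (1.15% of all).

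Genes of MHC class I presentation went up: 14 of 17 rose, 2 fell and 1 did not pass (median 0.59). TAPBP, which loads peptides, rose from 65.0 ± 3.41 to 138 ± 8.58 CPM (log2FC 1.08) and HLA-E from 174 ± 5.64 to 339 ± 4.46 CPM (log2FC 0.96), while the peptide pump subunit TAP2 fell from 106 ± 4.55 to 76.6 ± 1.47 CPM (log2FC -0.47). Of 23 NF-kB and inflammatory genes 8 rose and 10 fell. The adhesion molecule ICAM1 rose from 3.03 ± 0.0871 to 35.1 ± 0.750 CPM (log2FC 3.53), and the chemokine CXCL8 fell from 29.9 ± 0.895 to 14.3 ± 0.405 CPM (log2FC -1.06).

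Genes of each metabolic group moved in both directions. Of 24 sterol synthesis and uptake genes 13 rose and 6 fell (median 0.38). INSIG1, which retains the SREBP complex in the endoplasmic reticulum, was at 11.3, 8.83 and 8.403 CPM with DMSO and at 68.6, 71.1 and 72.2 CPM with GSK715 (log2FC 2.89, SE 0.101, adjusted p = 4.07e-09). MVD, of the mevalonate pathway, rose from 14.6 ± 0.107 to 37.9 ± 0.669 CPM, and CYP51A1, a later sterol enzyme, fell from 122 ± 4.02 to 42.5 ± 0.653 CPM (log2FC -1.52). Of 17 measured fatty acid genes 9 rose, 4 fell and 4 did not pass (median 0.19), and FASN and SREBF1 rose by 0.92 and by 1.05 on the log2 scale. Of 22 NRF2 and glutathione genes 7 rose and 13 fell (median -0.19). Thioredoxin reductase TXNRD1 fell from 2356 ± 42.1 to 838 ± 6.76 CPM (log2FC -1.49) and SRXN1 from 830 ± 8.68 to 139 ± 3.63 CPM (log2FC -2.58), and the ferritin subunits FTH1 and FTL rose by 0.63 and by 0.88 on the log2 scale. Glycolysis and hypoxia genes rose in 15 and fell in 11 of 28 cases, with NDRG1 up from 135 ± 3.15 to 414 ± 5.32 CPM and VEGFA down from 508 ± 13.7 to 215 ± 3.85 CPM.

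Transcripts of the mitochondrial genome encode 13 subunits of the respiratory chain. Their share of all counts was 5.23%, 5.59% and 5.58% in the DMSO libraries and 7.83%, 7.64% and 7.32% in the GSK715 libraries. The groups did not overlap (5.47% ± 0.204 against 7.60% ± 0.256, exact two-sided permutation p = 0.1, the smallest that 3 against 3 allows). Of the 13 genes 9 rose, 1 fell and 3 did not pass (median 0.21). MT-CO1 rose by 0.68 and MT-ND6 by 0.71 on the log2 scale, whereas MT-ND1 fell by 0.26.

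Genes of intestinal identity moved in both directions. Among genes of Wnt signalling and crypt stem cells 20 of 24 were measured, and 11 rose and 8 fell (median 0.52). PROM1, a stem cell surface marker, was at 47.6, 47.4 and 47.6 CPM with DMSO and at 277, 284 and 280 CPM with GSK715 (log2FC 2.56, SE 0.0292, adjusted p = 5.00e-12). AXIN2, a feedback inhibitor of the pathway, rose by 0.74 on the log2 scale, and the secreted inhibitor DKK1 fell from 90.4 ± 5.42 to 24.1 ± 2.51 CPM (log2FC -1.91). Of 15 measured absorptive and brush border genes 9 rose and 4 fell (median 0.95), and the other 9 of the 24 listed did not pass the expression filter. A gene can pass that filter through its higher group alone, as ALPI did. The summed level of the list went the other way, from 1845 to 1874 CPM in the DMSO libraries to 1092 to 1109 CPM in the GSK715 libraries. Of the 9 that rose, 7 stayed under 10 CPM. The brush border motor MYO7B rose from 1.14 ± 0.192 to 5.68 ± 0.409 CPM and ESPN from 0.901 ± 0.0409 to 4.09 ± 0.102 CPM, while ezrin (EZR) fell from 936 ± 12.8 to 484 ± 6.599 CPM and the differentiation keratin KRT20 from 605 ± 7.05 to 261 ± 10.5 CPM. ALPI, the intestinal alkaline phosphatase, had 0 counts with DMSO and 106 with GSK715, at least 35.6-fold higher when the DMSO group is set to 3 counts. Among 17 measured goblet cell genes and mucins (of 22 listed) 8 rose and 4 fell (median 0.46). The gel-forming mucin MUC5AC was at 828, 807 and 785 CPM and then at 200.1, 193 and 213 CPM (log2FC -2.00), and MUC2 fell by 1.49 on the log2 scale. The membrane mucins MUC13, MUC20 and MUC12 rose, by 0.94, 2.14 and 2.85. Of 16 enteroendocrine genes 8 passed the filter and 4 rose, all from under 1 CPM.

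Outside the lists, the largest increases among called genes of at least 5 CPM began near 0. SLCO2B1, an organic anion carrier, was at 0.235, 0.130 and 0.178 CPM with DMSO and at 14.3, 14.8 and 15.1 CPM with GSK715 (log2FC 6.34, SE 0.191, adjusted p = 1.59e-09). CD109, a TGF-beta co-receptor, was at 0.201, 0.357 and 0.661 CPM and then at 22.2, 21.7 and 20.04 CPM (log2FC 5.66). LASP1NB was at 2.25, 1.54 and 2.39 CPM and then at 85.9, 90.0 and 88.4 CPM (log2FC 5.41, SE 0.118, adjusted p = 1.98e-10), and PIGR, which carries immunoglobulin across epithelia, at 0.620, 0.357 and 0.153 CPM and then at 12.6, 13.1 and 14.2 CPM (log2FC 5.18). BNIP5, SCAMP5, TNXB and IGFL2-AS1 rose by 5.89, 4.66, 4.59 and 4.54 on the log2 scale. The other 2 of the 10 largest, POGLUT2P1 (6.99, a pseudogene) and AMY2B (4.64), are uncertain. With DMSO all 10 lay below 3 CPM.

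The largest decreases included genes of high level. UNC5B, a netrin receptor, was at 173, 165 and 152 CPM with DMSO and at 3.98, 4.94 and 3.91 CPM with GSK715 (log2FC -5.25, SE 0.0859, adjusted p = 3.49e-11). ATP11A, a phospholipid flippase, was at 122, 122 and 120 CPM and then at 4.94, 4.44 and 3.72 CPM (log2FC -4.79), and the noncoding LINC00662 at 169, 164 and 168 CPM and then at 6.17, 6.21 and 4.65 CPM (log2FC -4.87). ANO3, of the anoctamin family, went from 13.2, 12.6 and 15.3 CPM to 0.132, 0 and 0.192 CPM, and APCDD1L from 12.7, 12.1 and 12.7 CPM to 0.0880, 0.147 and 0.112 CPM. LAMP3 and KLHL29 fell by 5.21 and by 5.00 on the log2 scale, and EREG and AREG complete the list with APCDD1L-DT (-5.60). Absence of overlap between the groups was part of the rule that chose these genes. Among genes with the most counts that changed at least 1.5-fold, the giant scaffold protein gene AHNAK rose from 1563, 1534 and 1546 CPM to 3126, 3126 and 3217 CPM (log2FC 1.03).

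The response of WiDr was set against that of HCT116 with a test of the difference itself (interaction in edgeR over 12 libraries and 21791 genes). The change was higher in WiDr for 5058 genes (23.2%) and lower for 5129 (23.5%), and with library totals for 7321 and 3203, so this split depended on the scaling. In all 46.7% of genes differed, 13.8% at least 2-fold higher and 8.53% at least 2-fold lower in WiDr. Among 15920 genes tested in both lines, 1916 rose in both, 2276 fell in both, 893 rose in WiDr and fell in HCT116, and 1555 fell in WiDr and rose in HCT116. In HCT116 alone 49.0% of genes were called, 24.6% higher and 24.4% lower. The tables of the lines were counted separately, so only changes are compared, not levels.

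**Figure D4:**
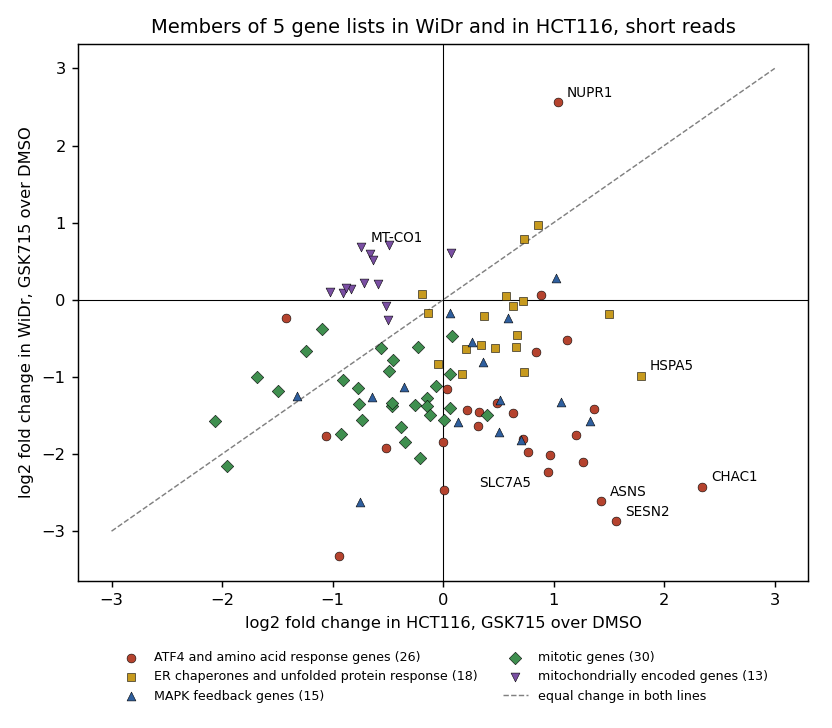
Log2 fold change with GSK715 in WiDr (vertical) against HCT116 (horizontal) for members of 5 gene lists tested in both, 1 point per gene. Most ATF4 genes lie at the lower right (lower in WiDr, higher in HCT116), most mitochondrially encoded genes at the upper left, and most mitotic genes at the lower left.

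For the ATF4 list the lines moved in opposite directions. In HCT116 18 of 27 genes rose and 4 fell (median 0.77), against 1 and 23 of 26 in WiDr, and the difference was lower in WiDr for 25 of 27 genes. Of 19 members called in both lines 16 went opposite ways. Over all genes called in both lines, 4192 went the same way and 2448 opposite ways. ASNS rose by 1.43 in HCT116 and fell by 2.61 in WiDr (difference -4.08, SE 0.0399, adjusted p = 9.06e-16), and SLC7A5 rose by 0.95 and fell by 2.24 (difference -3.23, SE 0.0483, adjusted p = 4.28e-14). ER chaperones rose in 14 of 18 cases in HCT116, where HSPA5 rose by 1.79, and 10 of 12 called in both lines went opposite ways. With library totals 10 of the ER genes fell and 5 rose in WiDr. Opposite calls of the lists were counted with TMM scaling only. MAPK feedback genes rose in 10 and fell in 4 of 15 cases in HCT116, and FOSL1 rose by 0.72. The mitochondrially encoded genes fell in 12 of 13 cases in HCT116 (median -0.67), and all 13 differed. Their share of counts there was 5.81% to 6.16% with DMSO and 3.18% to 3.30% with GSK715. Other changes ran the same way. EGFR fell by 3.46 in HCT116, and its difference between the lines did not pass (0.16, SE 0.0925, adjusted p = 0.191). Mitotic genes fell in 22 of 30 cases in HCT116 with a smaller median (-0.46). The tested difference was lower in WiDr for 22 of the 30 and higher for 4 (median -0.87). EREG and AREG fell in both lines, by 1.79 and by 0.53 in HCT116, and more in WiDr (differences -4.18 and -4.85).

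The same line and treatment were also read by ONT. There 1397 of 15877 genes (8.80%) were called from 2 libraries a group, 681 (4.29%) higher and 716 (4.51%) lower. At least 2-fold, 2.15% were higher and 1.58% lower. These numbers rest on each DMSO library: without DMSO replicate 1, 236 rose and 228 fell, and without replicate 2, 284 and 307. Of 2561 genes changed at least 2-fold in short reads and also tested by ONT, 74.5% had the same sign, 420 were called in the same direction and 30 in the opposite one. Their median change was 1.44 in short reads and 0.27 by ONT in the same direction, on the log2 scale. The genes were chosen for the size of their short-read change, so these medians do not compare the sizes of change in general. Across 11602 genes Spearman's rho of the levels by short reads and ONT was 0.63 with DMSO and 0.64 with GSK715, as a description across genes whose counts depend on length in short reads.

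**Figure D5:**
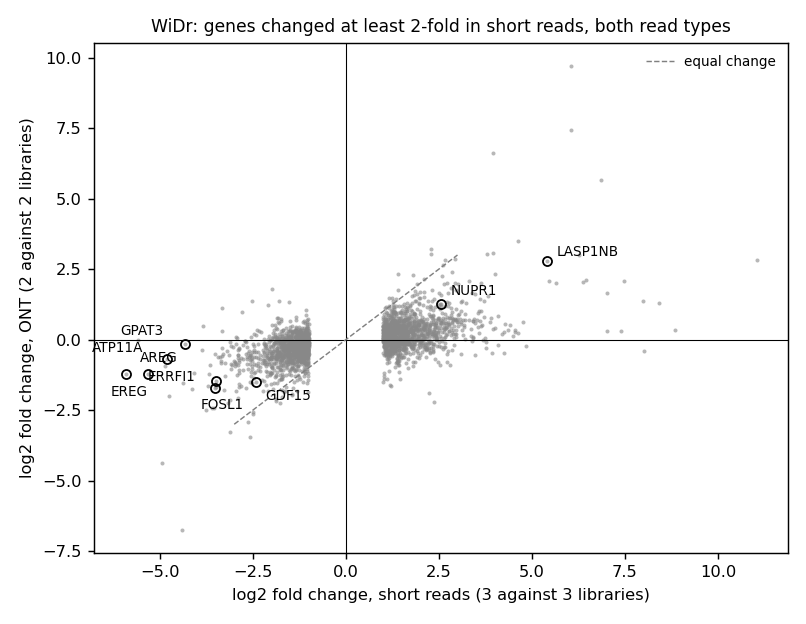
Log2 fold change by ONT (vertical) against short reads (horizontal) for genes changed at least 2-fold in WiDr short reads and tested in both, 1 point per gene, with named genes circled. The points lie mostly on the side of 0 given by the short reads but closer to 0 than the dashed line of equal change.

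Several of the main changes were called by ONT too. EREG and AREG each fell by about 1.2 on the log2 scale (-1.23, adjusted p = 3.66e-10, and -1.24, adjusted p = 8.49e-11), against -5.92 and -5.33 in short reads. ERRFI1 (-1.48), FOSL1 (-1.70), EGFR (-0.82), CDKN1A (-1.24), GDF15 (-1.504) and MUC5AC (-0.95) fell, and LASP1NB (2.78), NUPR1 (1.26) and NEAT1 (0.95) rose. Others did not pass by ONT: ASNS (-0.39, adjusted p = 0.152), MYC (-0.23, adjusted p = 0.536), TPX2 (-0.28, adjusted p = 0.436), HSPA8 (0.32, adjusted p = 0.0548) and PROM1 (0.69, adjusted p = 0.0708). By list, 9 of 23 ATF4 genes fell and 1 rose, 3 of 30 mitotic genes fell, 4 of 12 MAPK feedback genes and 6 of 12 immediate early genes fell, and 6 of 13 mitochondrially encoded genes rose and none fell. Other lists had few or mixed calls by ONT, and with 2 libraries a group few calls do not show that a list was unchanged. Among 33 SR and hnRNP genes 4 fell and 3 rose (median -0.03), and among 25 ribosome biogenesis factors 1 fell and 1 rose. The ONT median of the ribosome biogenesis factors was -0.19, beside -0.22 for the mitotic genes and 0.003 over all genes. Nonsense-mediated decay factors rose in 1 of 16 cases and fell in none. Sterol genes fell in 1 of 22 cases and rose in none (median -0.18). Of 26 glycolysis and hypoxia genes none rose by ONT and 11 fell (median -0.29), against 15 and 11 of 28 in short reads. Of 10 called by both, 5 went opposite ways, among them NDRG1 (1.62 in short reads and -0.83 by ONT, adjusted p = 3.72e-08). Over all genes called by both read types, 782 went the same way and 112 opposite ways. The difference between the read types was not tested here.

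HBEGF, EPGN, ERBB4, DUSP10, SPRY2, EGR1, ATF4, CHAC1, SLC7A1, KHDRBS1, ALPI and the marker genes at or near 0 fall outside the rule for naming genes and were chosen after their values were seen. ASNS, AMY2B, AXIN2, CCND1, CYP51A1, DUSP6, FTH1, FTL, HLA-E, HNRNPA1, ICAM1, IER3, KRT18, LRIG1, LYZ, MUC12, MUC20, PHLDA1, PRMT5, SRXN1 and TAP2 share exonic bases with another gene or belong to near-identical families, so their levels are uncertain.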

How the data were processed

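WiDr cells had been treated with DMSO or GSK715 and sequenced as short poly(A)-enriched reads. The authors deposited raw counts per gene for the short reads and estimated counts per gene for ONT, of which 15.09% were not whole and which were rounded here. Per the submitters' processing notes, cutadapt, HISAT2, StringTie, DESeq2, minimap2, Salmon and GRCh38 were used; their roles and versions, the annotation release and the use of strand are not given in the sources used here. Without stated strand, reads of a gene and its antisense partner cannot be told apart. Column names with NC match no label; as DMSO is the remaining WiDr group, they were read as DMSO.

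Identifiers were named with GENCODE 29 and a table of gene names. Counts were filtered with filterByExpr (minimum count 10, total 15), scaled with TMM and tested with edgeR 4.0.16 (R 4.3.3) with its quasi-likelihood test (F statistic), p-values being adjusted by Benjamini-Hochberg. The difference between WiDr and HCT116 was an interaction over the 60259 identifiers shared by their tables. DESeq2 1.42.0, other scalings, no filter, a replicate block, a 1.5-fold null (glmTreat) and leaving out each library were alternatives.

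The members, the 49 gene lists and the tests were chosen with earlier results of these data known. The naming rule took PRMT1 and PRMT5, the 10 largest increases and decreases among called genes of at least 5 CPM without overlap between groups, for each list and direction 3 called genes, those of lowest adjusted p, the 10 genes with the highest mean CPM changed at least 1.5-fold, and 5 differences each way between lines. Genes with at least 10% of exonic bases in another gene were named as uncertain. The variance between replicate libraries was 10.5 to 20.3 times that of counting, so no pair was counted as 1 sample, and the common biological coefficient of variation was 15.5%. On data simulated from the WiDr libraries (19340 genes), 67, 67 and 66 genes were changed 1.5-fold, 2-fold and 4-fold. Of these, 44.8%, 53.7% and 80.3% were recovered, and 15 unchanged genes were called. In the real data 65.8% of genes were called, so the recovery there may differ from these shares.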

Additional observations from a re-analysis of the deposited data

Results flagged for a closer look

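Of 271 named genes tested in both lines, 241 passed the test of the difference in response between WiDr and HCT116, 91 were called in opposite directions, and 80 of these had every group mean at 5 CPM or more. Over all 21791 genes 46.7% differed, and of 15920 genes tested in both lines 893 and 1555 were called in opposite directions. The naming rule chose most genes by their change in WiDr and some by this difference itself. High counts were thus built in and are no result about the named genes. The 5 largest differences each way among the 80, chosen after their values were seen, are given as WiDr minus HCT116 on the log2 scale (edgeR interaction, Benjamini-Hochberg adjusted). GPAT3, an enzyme of triglyceride synthesis, fell by 4.32 in WiDr and rose by 1.28 in HCT116 (difference -5.65, SE 0.0870, adjusted p = 5.03e-14). The YAP target CCN2 differed by -4.98, with a rise of 2.48 in HCT116, and the keratin KRT80 by -4.54, with a rise of 2.45. The stress genes SESN2 and ATF3 differed by -4.49 and -4.29, and rose by 1.56 and 1.70 in HCT116. On the other side MALAT1 differed by 3.01 (SE 0.161, adjusted p = 4.96e-09), having fallen by 1.498 in HCT116. PROM1 differed by 2.93, ATM by 2.66, AHNAK by 2.37 and HSPA8 by 2.04. Of these, PROM1 and HSPA8 fell by little in HCT116 (-0.42 and -0.15), and ATM and AHNAK by more (-1.88 and -1.39).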

How the results depend on the processing

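In WiDr short reads the counts of genes that rose, 6502, and fell, 6225, were 5877 to 6391 and 5984 to 6051 without 1 library. With library totals they were 7495 and 5300, and against a 1.5-fold null 3519 and 2898. With library totals the genes whose response was lower in WiDr than in HCT116 numbered 3203 in place of 5129 (at least 2-fold lower, 1052 in place of 1859), PRMT1 went to 0.0070 and PDIA3 to 0.042. By ONT the 681 higher and 716 lower genes became 141 and 110 without a filter (at least 2-fold, 102 and 64) and 127 and 102 by DESeq2 (at least 2-fold, 70 and 56). Without 1 ONT library they were 236 to 571 and 228 to 509, and at least 2-fold 175 to 263 and 128 to 214. The causes were not tested. Same-numbered libraries correlated weakly in WiDr (0.0609, 0.0313 and 0.0496), but each correlated best with its own number. The main fit did not take the numbers as pairs, and whether they mark pairs was not tested. With the replicate block 6249 genes rose and 6102 fell in WiDr, 4782 and 5007 differed between lines, and 856 and 850 were called by ONT. Over all alternatives, 3804 values of named genes kept direction and call, 90 lost the call and 2 reversed, and 57 of the 90 did so against the 1.5-fold null. Of the list counts 1181 stayed within 1.5 times and 93 did not, 58 of these against the 1.5-fold null and 9 with library totals. The 9 with library totals were p53 genes (11 rose), ATF4 genes (2 rose), ER chaperones (5 rose), BMP genes (8 rose), heat shock chaperones (6 fell), MHC class I genes (1 fell), small nucleolar RNA host genes (3 fell) and splicing kinases (5 rose, 2 fell).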

Other observations

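Structural and signalling genes outside the groups above also moved. Keratins divided, 8 up and 7 down of 16: KRT17, a keratin of stressed epithelia, fell from 850.5 ± 14.96 to 74.6 ± 2.60 CPM (log2FC -3.51) and KRT80 from 565 ± 10.2 to 137 ± 1.24 CPM (log2FC -2.05), while KRT19 rose from 1049 ± 22.8 to 1567 ± 40.1 CPM (log2FC 0.58). Of 16 Notch pathway genes 6 rose and 5 fell (median 0.085). The Notch ligand JAG1 fell from 425 ± 4.92 to 46.2 ± 2.41 CPM (log2FC -3.20), and the receptor NOTCH1 rose from 53.1 ± 1.25 to 102 ± 3.09 CPM (log2FC 0.94). Of 17 BMP and TGF-beta response genes 5 rose and 8 fell (median -0.16), and with library totals 8 rose and 6 fell. Among them ID1, a target of BMP signalling, fell from 383 ± 9.05 to 48.6 ± 1.32 CPM (log2FC -2.98). Of 13 measured BCL2 family genes 6 rose and 5 fell, with the proapoptotic BMF up from 8.57 ± 1.45 to 85.4 ± 3.23 CPM (log2FC 3.31) and the antiapoptotic MCL1 down from 647 ± 17.7 to 303 ± 3.03 CPM (log2FC -1.09). Polyamine genes went both ways: ODC1, the first enzyme of synthesis, fell from 688 ± 4.96 to 189 ± 1.74 CPM (log2FC -1.87), and SAT1, which marks polyamines for export, rose from 128 ± 2.90 to 287 ± 13.1 CPM (log2FC 1.16). The translation elongation factor gene EEF2 rose from 1894 ± 42.7 to 3373 ± 24.8 CPM (log2FC 0.83).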
